A study of Saccharomyces cerevisiae with 7 samples.

Results

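The 9 Rph1 peaks described here lie over genes of sulfur uptake, methionine and S-adenosylmethionine (SAM) metabolism in Saccharomyces cerevisiae, and they are 9 of the 731 peaks of the deposited table. They were chosen from earlier results of the same table by the sulfur gene that each was said to cover, with their signal after the change of medium already known. The change from YPL to SL is therefore given as a description, with no test. The pairs of peak and gene are SUL2 with chrXII_322695_327429, MET5 with chrX_678334_683859, MET10 with chrVI_211796_217106, MET2 with chrXIV_114645_119291, MET6 with chrV_339080_343976, SAM2 with chrIV_1452476_1456042, MHT1 and MMP1 with chrXII_16404_20226, MUP3 with chrVIII_25306_28522, and CYS3 with chrI_129005_132592. Names give the chromosome, start and end in the sacCer2 build, and the pairing came with the choice of peaks and was not checked against an annotation of that build.

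Signal came from chromatin immunoprecipitation with sequencing (ChIP-seq) of HA-tagged Rph1, a histone demethylase of the JmjC family that removes methyl groups from lysine residues of histone H3. All 7 libraries were from MATa cells of the CEN.PK background with an HA tag and a HYG marker on RPH1, and no input or untagged library is in the table. Cells with RPH1-HA-HYG, here called wild type, gave 2 libraries in log phase in YPL (yeast extract, peptone and lactate) and 2 libraries 1 h after being moved into SL. A ppm1::kanMX deletion with RPH1-HA-HYG gave 2 libraries in YPL, and cells with RPH1-S412A-HA-HYG gave 1 library in YPL. Ppm1 is the methyltransferase of the protein phosphatase PP2A, and S412A puts alanine in place of a serine of Rph1. The label of the first SL library gives a nitrogen base without amino acids and that of the second gives ammonium sulfate and lactate, and whether both had the same medium was not tested. The loss of PPM1 cannot be checked in a table of Rph1 peaks. The labels name no separate cultures, so p-values and SEs rest only on the spread between these libraries, pooled over peaks, which may be technical.

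Yeast takes up sulfate, reduces it to sulfide in several steps, and joins the sulfide to a carbon chain made from homoserine to form homocysteine. Homocysteine is methylated to methionine, which is activated to SAM, the methyl donor for proteins, lipids, RNA and histones. Homocysteine can also pass through cystathionine to cysteine. In this yeast the pathway genes are known to be induced when methionine and cysteine run short.

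The table of values held 1 step per library, and every value was a whole multiple of it (100% within a tolerance of 0.001). If values are reads scaled to 22000000 per library, the smallest totals that make them whole are 13808893 to 34820208 reads. For 6 of the 7 libraries multiples of that total within the range searched do so too, so these totals are not settled by the values. With the smallest totals the sulfur gene peaks would hold 2842 to 25389 reads each, a counting error of 0.628% to 1.88% that does not cover PCR copies.

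By signal per kb of peak width, the 9 peaks were among the lowest of the table in all 5 libraries grown in YPL. By the same measure they were among the highest in both SL libraries. Signal per kb of peak width, ranked over the 731 peaks with 1 as the highest, placed them at 636 to 731 and 652 to 729 in the wild-type YPL libraries. In the SL libraries they stood at 3 to 79 and 3 to 91. In the ppm1 deletion they stood at 633 to 728 and 602 to 731, and in S412A at 622 to 731. All 9 were thus in the lowest 25% of peaks in every YPL library and in the highest 25% in both SL libraries. Ranks within a library do not depend on how libraries are scaled, but these ranks do depend on dividing by width. All 9 peaks were wider than the median peak, and ranks of the undivided signal are not given here. The peaks summed to 1.05% ± 0.0708 (SD, n = 2) of all peak signal in wild-type YPL and 1.17% ± 0.0723 (n = 2) in the ppm1 deletion. They made up 1.26% in the single S412A library and 3.28% ± 0.426 (n = 2) in SL, beside 1.82% of the length of all peaks.

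**Figure D1:**
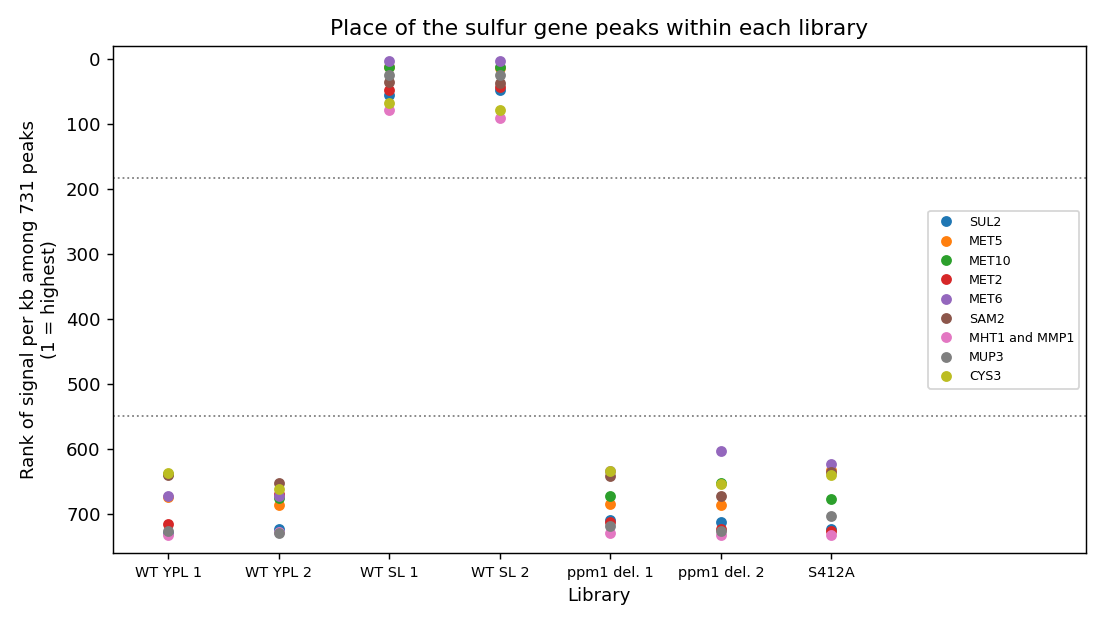
Rank of signal per kb among 731 peaks (y axis, 1 at the top) for the 9 sulfur gene peaks in each of the 7 libraries (x axis); dotted lines mark the highest and lowest 25% of peaks. All points of the YPL libraries lie at 602 or lower down, and all points of the SL libraries lie at 91 or higher up.

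The MET6 peak stood at 671 and 672 in the wild-type YPL libraries and at 3 in both SL libraries, the highest place of the 9. MUP3 started lower, at 725 and 729, and stood at 24 in both SL libraries. The MHT1 and MMP1 peak was last of all 731 in the first wild-type YPL library, the second ppm1 library and S412A. It stood at 79 and 91 in SL, the lowest places of the 9.

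Sulfate uptake and reduction came first in the pathway order. The SUL2 peak covers the gene for a high-affinity sulfate permease of the plasma membrane. Its signal was 5851 and 5677 in the wild-type YPL libraries, 17880 and 13192 in SL, 6433 and 6254 in the ppm1 deletion, and 5836 in S412A. The SL libraries lay far above all others, at a ratio of geometric means of 2.66 to wild-type YPL (log2 1.41, SE 0.18), and both ppm1 values lay above both wild-type values.

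MET5 and MET10 encode the subunits of sulfite reductase, which turns sulfite into sulfide. At the MET5 peak signal was 7602 and 7200 in wild-type YPL, 29576 and 19508 in SL, 7847 and 7660 in the ppm1 deletion, and 7714 in S412A. At the MET10 peak the values were 7643 and 7037, then 27916 and 18977 in SL, 7750 and 7620 in the ppm1 deletion, and 7114 in S412A. Both subunit genes behaved much alike, with ratios of 3.25 (log2 1.70, SE 0.19) at MET5 and 3.14 (log2 1.65, SE 0.19) at MET10. Their mean levels per kb in SL, 4441 ± 1288 and 4415 ± 1190 (SD, n = 2 each), differed by far less than the spread between libraries, and each was the higher of the pair in 1 of the 2 SL libraries.

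The next steps make homocysteine and methionine. MET2 encodes homoserine O-acetyltransferase, which makes the acceptor for sulfide. Its peak held 5985 and 6211 in wild-type YPL, 18043 and 13204 in SL, 6245 and 5918 in the ppm1 deletion, and 5669 in S412A. The SL ratio was 2.53 (log2 1.34, SE 0.18), while the YPL libraries of the 3 strains lay between 5669 and 6245.

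MET6 encodes the cobalamin-independent methionine synthase that methylates homocysteine. Its peak held 6743 and 6525 in wild-type YPL, 40449 and 24806 in SL, 7490 and 7430 in the ppm1 deletion, and 6919 in S412A. The SL ratio was 4.78 (log2 2.26, SE 0.20), the highest of all 731 peaks, with ratios of single libraries from 3.68 to 6.20. In each SL library MET6 exceeded the other 8 peaks in signal per kb, at 8260 and 5066, although its lower value lay within the range of the MET5 peak (5352 and 3530).

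SAM2 encodes a SAM synthetase, which makes SAM from methionine and ATP. The SAM2 peak held 5123 and 4878 in wild-type YPL, 14984 and 10487 in SL, 5403 and 5009 in the ppm1 deletion, and 4968 in S412A. Its SL ratio was 2.51 (log2 1.33, SE 0.17), and the groups in YPL overlapped.

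MHT1 and MMP1 serve the use of S-methylmethionine: Mmp1 is its permease, and Mht1 transfers its methyl group to homocysteine. These genes are direct neighbours in the RefSeq annotation of the R64 assembly and share the peak. It held 4404 and 4497 in wild-type YPL, 12957 and 9343 in SL, 4738 and 4442 in the ppm1 deletion, and 4191 in S412A, an SL ratio of 2.47 (log2 1.31, SE 0.15). The S412A value was the lowest of the 7. Signal of the peak cannot be divided between MHT1 and MMP1.

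MUP3 encodes a low-affinity methionine permease. Its peak, the narrowest of the 9 at 3217 bp, held 4048 and 3706 in wild-type YPL, 15041 and 10119 in SL, 4189 and 4068 in the ppm1 deletion, and 4142 in S412A. The SL ratio of 3.19 (log2 1.67, SE 0.15) was close to those of MET5 and MET10.

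CYS3 encodes cystathionine gamma-lyase, which releases cysteine from cystathionine. Its peak held 5185 and 4866 in wild-type YPL, 12524 and 8971 in SL, 5479 and 5139 in the ppm1 deletion, and 4983 in S412A. Its SL ratio of 2.11 (log2 1.08, SE 0.16) was the smallest of the 9, and it ranked 20 among all peaks by log2 change in SL. The other 8 were all among the first 10, where the remaining peaks, chrII_379694_383475 (log2 1.41) and chrXVI_127800_132797 (1.36), are not among the sulfur gene peaks.

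**Figure D2:**
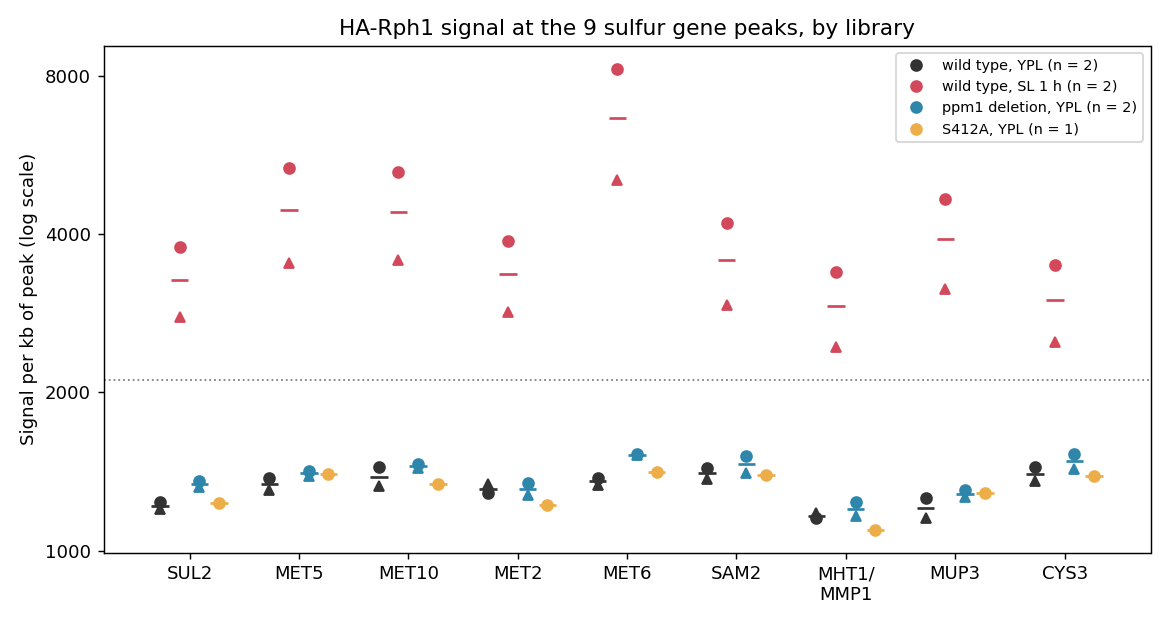
Signal per kb of peak (y axis, log scale) at the 9 sulfur gene peaks (x axis) in wild type in YPL and in SL, the ppm1 deletion and S412A; circles are replicate 1 (and the only S412A library), triangles replicate 2, short lines group means. The dotted line at 2112 is the median over libraries of the median peak; SL values lie above it, from 2444 to 8260, and all others lie below it, from 1096 to 1529.

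Over the 9 peaks the median log2 change in SL was 1.41, beside -0.09 over all 731 peaks. Both SL libraries lay above both wild-type YPL libraries at 9 of 9 (33.4% of all peaks), and limma called 9 of 9 as higher in the fit across all peaks (23.3% of all peaks). The choice of peaks used this contrast, so nothing is read from these counts. Ratios between a single SL and a single YPL library ranged from 1.73 at CYS3 to 6.20 at MET6, and exceeded 2 in every pairing at 8 of the 9. The share of all peaks that did so was not computed, and nothing is read from that count either.

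Signal per kb in SL was ordered from high to low as MET6 (6663 ± 2259, SD, n = 2), MET5, MET10, MUP3 (3911 ± 1082), SAM2 (3570 ± 891), MET2 (3362 ± 736), SUL2 (3281 ± 700), CYS3 (2995 ± 700), and MHT1 with MMP1 (2917 ± 668). The ranges of every pair of neighbours in that order overlapped. Within a library the order was stable, since both SL libraries ranked the neighbours alike except MET5 and MET10. In wild-type YPL the order was another, from SAM2 (1402 ± 48.7) and CYS3 (1401 ± 62.7) down to MUP3 (1205 ± 75.2) and MHT1 with MMP1 (1164 ± 17.2). Only MET2 (1312 ± 34.3) and SUL2 (1217 ± 26.0) were neighbours in that order whose ranges did not overlap.

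The SL libraries differed in height at these peaks. The first was higher at 9 of 9, by a median ratio of 1.43 (range 1.36 to 1.63), beside a median of 1.17 over all peaks, where the central 90% ran from 0.953 to 1.44. The MET6 ratio of 1.63 was the highest of all 731. Between the wild-type YPL libraries the ratio at these peaks was 0.964 to 1.09, and between the ppm1 libraries it was 1.01 to 1.08, below the ppm1 median over all peaks of 1.13 at 9 of 9. The SL libraries thus lay further apart at the 9 peaks than the replicates in YPL did. Without the first SL library the log2 changes were 0.84 at CYS3 to 1.90 at MET6, and without the second 1.32 to 2.61.

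The 9 peaks were wide. Widths were 3217 to 5526 bp with a median of 4647 bp, beside a median of 2528 bp over all peaks (range 1083 to 10360), and 9 of 9 were wider than that median. They lay on 8 of the 16 chromosomes, chromosome XII holding 2. The sources used here do not say from which libraries the borders were set, and a link between width and SL signal was not tested.

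The neighbouring peaks had lower ratios in SL than the sulfur gene peaks between them. Each of the 9 had a neighbour peak on both sides, 18 in all and none of them a sulfur gene peak, at gaps of 1152 to 55168 bp. Of these 18, limma called 3 as higher and 10 as lower in SL, and 5 were not called, beside 23.3% higher and 36.7% lower over all peaks. Their log2 changes ran from -1.15 to 0.65, with a median of -0.44, so the highest lay below the lowest sulfur gene peak (CYS3, 1.08). The sulfur gene peaks were chosen with their SL signal known, so most other peaks would lie below them too. Nothing is read from this difference. The closest was chrIV_1449676_1451323, 1152 bp from the SAM2 peak. There signal was 3461 and 3530 in wild-type YPL and 2302 and 2257 in SL, a log2 change of -0.62 (limma adjusted p = 4.12e-06). Beside SUL2 the peak chrXII_282478_284203 fell from 4790 and 5393 to 2350 and 2233 (log2 -1.15, adjusted p = 1.33e-17). The highest neighbour, chrXII_29051_31866, lay 8824 bp from the MHT1 and MMP1 peak. It rose from 3562 and 3486 to 6175 and 4955 (log2 0.65, adjusted p = 2.3e-06).

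**Figure D3:**
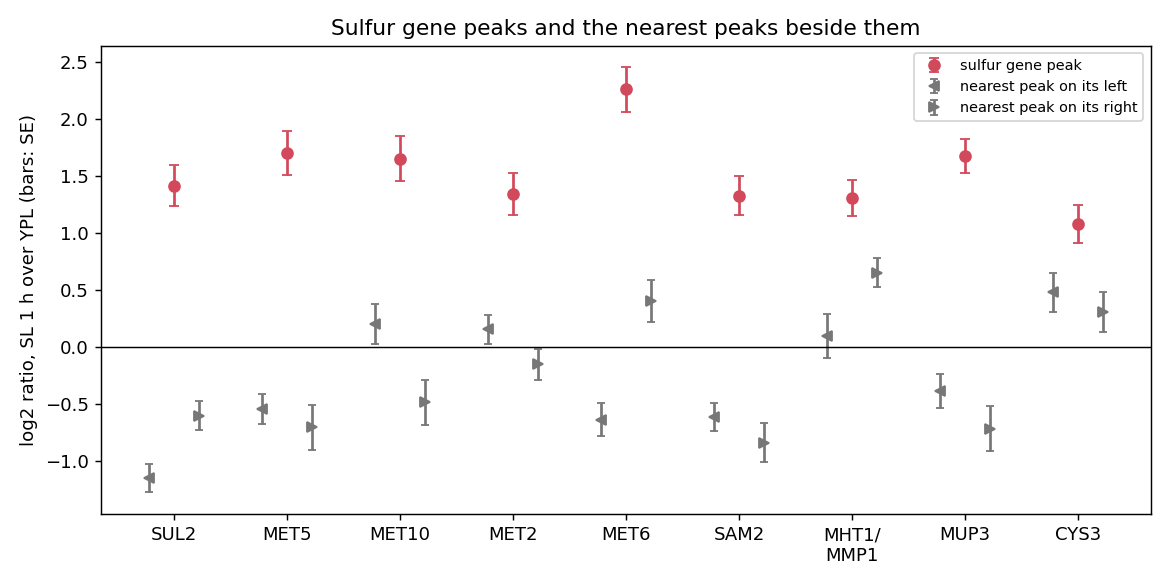
Log2 ratio of SL to wild-type YPL (y axis, bars are SE from limma) at each sulfur gene peak and at the nearest peak on its left and right (x axis). The sulfur gene peaks lie between 1.08 and 2.26 and their 18 neighbours between -1.15 and 0.65.

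Other peaks as low as these in wild-type YPL had a smaller median change in SL. There were 80 other peaks within their range of wild-type YPL signal per kb, 1164 to 1402. Their median log2 change in SL was 0.30, the central 90% ran from -0.03 to 1.13, and limma called 41 (51.2%) as higher and 0 as lower, beside 23.3% and 36.7% of all peaks. The highest of the 80 stood at 1.36, above 4 of the 9 sulfur gene peaks (MET2, SAM2, CYS3, and MHT1 with MMP1). This set was formed after the data were seen and shares its YPL libraries with each change, so no test is given.

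The profiles most like theirs over the 7 libraries were picked by a distance. Likeness was the Euclidean distance over the 7 libraries between log2 values, each relative to the peak's own wild-type YPL mean, and the median profile of the 9. The closest outside the 9 were chrXVI_127800_132797 (distance 0.168), chrVIII_279921_281951 (0.208), chrVIII_322379_325144 (0.218), chrII_379694_383475 (0.243) and chrXI_570907_573530 (0.295). The first held 6434 and 6805 in wild-type YPL, 20386 and 14246 in SL, 7018 and 6874 in the ppm1 deletion, and 6176 in S412A. The 5 peaks changed by log2 1.23 to 1.41 in SL. No gene is assigned to them here. Of the 9, SUL2 lay closest to that median profile (0.0885) and MET6 furthest (1.21). The 5 other peaks were closer to it than 5 of the 9 sulfur gene peaks, MET10 (0.349), MUP3 (0.393), MET5 (0.426), CYS3 (0.478) and MET6.

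Comparing strains in YPL bears on whether Rph1 signal differs with loss of Ppm1, or with the S412A form of Rph1, at these peaks in the same medium. In the ppm1 deletion limma called 0 of the 9 (1.23% of all peaks were called), and 0 had an unadjusted p under 0.05. The median log2 change was 0.07 over the 9 and -0.01 over all peaks, with 8 of 9 above 0. MET6 was the furthest from wild type, from 6634 ± 154 to 7460 ± 42.6 (SD, n = 2 each), a ratio of 1.12 (95% interval 0.862 to 1.47, limma unadjusted p = 0.386, adjusted p = 0.997). SUL2 followed, from 5764 ± 123 to 6344 ± 127, a ratio of 1.10 (0.860 to 1.41). MET2 was the closest to wild type, at a ratio of 0.997 (0.780 to 1.28).

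Libraries of the ppm1 deletion and of wild type did not overlap at 4 of the 9, MET6, MET5, SUL2 and MUP3 (35.4% of all peaks). At those 4 the ppm1 deletion was the higher, beside 16.6% of all peaks where it was the higher without overlap. Upper ends of the 95% intervals were between log2 0.35 (MET2 and the MHT1 and MMP1 peak) and 0.55 (MET6), so a rise of the size seen in SL, 1.08 to 2.26, lay outside them. The comparison shares the wild-type YPL libraries with the SL contrast that chose the peaks. The 80 peaks of the same height had a median of 0.09 in the ppm1 deletion, and limma called 0 of them.

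In S412A limma called 0 of the 9 (19.4% of all peaks were called), and 0 had an unadjusted p under 0.05. That background of 142 peaks was 0 to 14 when any replicated YPL library was left out and 283 without either SL library, while 0 of the 9 were called in each case. The median log2 change was -0.01, beside -0.25 over all peaks. Single values ran from -0.11 at MET2 (ratio 0.930, 95% interval 0.688 to 1.26) to 0.10 at MUP3 (1.07, 0.831 to 1.38). At 4 of the 9 the change was above 0 and at 5 below, whereas with median-centred or quantile-normalized libraries all 9 were above 0. The value of the single S412A library lay outside both wild-type libraries at 5 of the 9, a lower share than the 92.5% over all peaks. It was above them at MET6, MET5 and MUP3 and below them at MET2 and the MHT1 and MMP1 peak. The S412A comparison also shares the wild-type YPL libraries with the SL contrast that chose the peaks.

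The S412A result at these peaks depended on the scaling. With quantile normalization limma called 4 of the 9 as higher in S412A, MET6 (log2 0.43), SUL2 (0.34), SAM2 (0.27) and MET5 (0.41). Over all peaks that setting gave 68 called as higher and 90 as lower. The median of the 9 was 0.31. With median-centred libraries their median was 0.23 and 0 of the 9 were called, beside 41 higher and 83 lower over all peaks. As deposited, the 80 peaks of the same wild-type height had a median of 0.03 in S412A, with 0 called, beside a median of -0.01 over the 9. The median of the 80 with the other scalings was not computed, so 0.03 cannot be set beside 0.23 or 0.31.

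The log2 difference between S412A and the ppm1 deletion is taken from libraries that did not choose the peaks, but the spread in its test comes partly from those that did. Without both SL libraries the calls over all peaks went from 2 to 64, with 0 of the 9 among them. Limma called 0 of the 9 there (0.274% of all peaks were called), and 0 had an unadjusted p under 0.05. The log2 differences ran from -0.13 at the MHT1 and MMP1 peak (ratio 0.913, 95% interval 0.706 to 1.18) to 0.00 at MUP3 (ratio 1.00, 0.780 to 1.29). Their median was -0.10, beside -0.24 over all peaks, and 1 of 9 was above 0. The direction depended on the scaling, since all 9 were above 0 with median-centred libraries (0.09 to 0.22) and with quantile normalization (0.10 to 0.30), with 0 called in either. Over the 9 peaks the intervals reach ratios from 0.670 to 1.38, and 0 calls do not show that the strains are alike at these peaks.

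**Figure D4:**
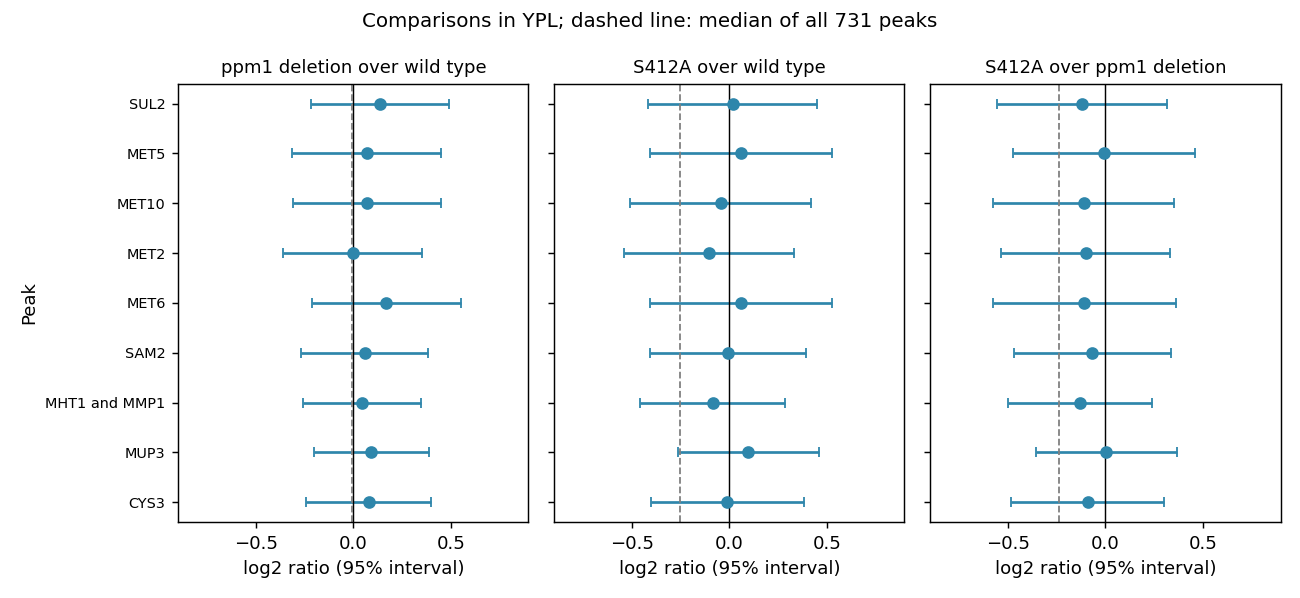
Log2 ratio with its 95% limma interval (x axis) at the 9 sulfur gene peaks (y axis) for the ppm1 deletion over wild type, S412A over wild type and S412A over the ppm1 deletion, all in YPL; dashed lines mark the median of all 731 peaks. All 27 intervals cover 0, and the dashed line lies left of 0 in both S412A panels (-0.25 and -0.24).

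The spread behind these intervals, and behind the SEs of the SL ratios, was pooled over peaks. The fit replaced the spread of each peak by a trend over mean signal, 0.15 to 0.20 (log2 SD) at the 9. Their own residual SDs were 0.18 to 0.29 and exceeded it at 8 of 9. Those residual SDs take in the SL libraries, whose replicate ratios at these peaks were 1.36 to 1.63. The replicate ratios were 0.964 to 1.09 in wild-type YPL and 1.01 to 1.08 in the ppm1 deletion. The residual SDs are thus not the spread among the YPL libraries alone. The lone S412A library was taken to vary as the replicated groups do.

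A low value in this table is not a value of 0. The 9 peaks held 1096 to 1529 per kb in the 5 YPL libraries, where the 1st percentile over all peaks was 1195 to 1282 per kb. Of their 45 values, 10 were at or below the 1st percentile of their library, all 5 of MHT1 with MMP1, 3 of MUP3, 1 of SUL2 and 1 of MET2. How far this level stands above regions outside the peaks was not analysed here, and with no spike-in a difference common to all peaks of a library cannot be told apart from a difference in the yield of the immunoprecipitation.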

How the data were processed

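Reads were aligned with Bowtie2 to sacCer2, per the submitters' processing notes, with no version. The authors deposited 1 table with a signal value for 731 peaks in 7 libraries. The sources used here do not give the peak caller, the merging of peaks, filters or the use of input. Samples were grouped by title. Values were fitted as deposited, with no further scaling, as log2 signal (pseudocount 0, no value being 0) in limma 3.58.1 under R 4.3.3. Group was the model's single factor, and the 7 libraries were fitted together (trend on, 3 residual degrees of freedom). The degrees of freedom that limma gave to the trend were infinite. Each p-value therefore rests on the trend and not on the peak's own spread between replicates. P-values were adjusted over all 731 peaks (Benjamini-Hochberg, threshold 0.05, two-sided), and the code was tested on simulated data. Ratios compare geometric means, and intervals are 95% limma intervals.

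The members and lists were chosen with earlier results of these data known. Named are the 9 peaks, the nearest peak on each side, and the 5 others closest in profile. The 10 gene symbols were all found in RefSeq R64, each on the chromosome of its peak. That table served for names and neighbouring genes alone. Of a list of 40 sulfur pathway genes, 30 are not among the genes of these peaks. Signal was assigned to none of the 30, as the table names no genes. A planned search of promoters for motifs was not run, and no sequence is printed.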

Additional observations from a re-analysis of the deposited data

How the results depend on the processing

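The settings tried were an added pseudocount (10% of the median), a filter on the lowest 10% of peaks, median centring, quantile normalization, a fit of the compared groups alone, a replicate block, a robust spread, leaving out each replicated library in turn and, added after the data were seen, leaving out both SL libraries. Calls of the 9 peaks in the ppm1 deletion and S412A were 0 in each of them except S412A against wild type with quantile normalization, where 4 were called. Of 360 single values so recomputed, 36 had the other sign without being called. The median change in S412A was 0.228 with median centring and 0.306 with quantile normalization, and -0.0445 to 0.0342 with a library left out. The median in the ppm1 deletion was 0.0284 to 0.125 with a library left out. In SL it stayed between 1.20 and 1.63, and every peak stayed above wild type (0.837 to 2.61). The cause of these shifts was not tested.

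Counts over all peaks moved more. In SL 438 were called, 544 with median centring, 556 with quantile normalization, and 221 to 451 with a library left out, lowest without the second (221) or first (249) wild-type YPL library. In the ppm1 deletion 9 were called, 33 with median centring, 46 with quantile normalization, 21 in the compared groups alone and without both SL libraries, and 0 to 24 with a library left out, highest without either SL library and at most 4 without a YPL library. In S412A 142 were called (14 higher and 128 lower), 41 higher and 83 lower with median centring, 68 and 90 with quantile normalization, 451 in the compared groups alone, 275 without both SL libraries, and 0 to 283 with a library left out, with 283 without either SL library and at most 14 without any replicated YPL library. Between S412A and the ppm1 deletion 2 were called, 4 with the filter, 19 with median centring, 21 with quantile normalization, 0 in the compared groups alone, 64 without both SL libraries, and 0 to 77 with a library left out, with 0 without any replicated YPL library.

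Deviations of same-numbered libraries correlated at -0.33, -0.44 and 0.14. Such values cannot show whether same-numbered libraries were handled together, so pairing by replicate number is not settled. With a replicate block 419 peaks were called in SL and 8 in the ppm1 deletion, 0 of the 9 among the latter. S412A has no replicate number to block on. What depth limits is not settled, since the read totals are inferred from the values.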
